A study of Mus musculus with 6 samples.

Results

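Stra8, Meioc, Ythdc2 and Zglp1 are 4 mouse genes known to act when fetal ovarian germ cells leave the mitotic cycle and enter meiosis. They were picked by name and matched through their Ensembl identifiers, and they are 4 of the 48709 genes in the count table. All 4 passed the expression filter that left 20167 genes for testing. The RNA came from ovaries of wild type CD1 embryos at 13.5 dpc (days post coitum), the age at which the first female germ cells have begun meiosis. In 3 control pools the dams had received ethanol by gavage, and in 3 APAP+IBU pools they had received acetaminophen (APAP, 30 mg/kg per day) and ibuprofen (IBU, 15 mg/kg per day) in 4 alternating gavages a day, 3 h apart, from 10.5 to 13.5 dpc. Both groups share strain, stage and gavage schedule, and each library is a pool of gonads from several embryos of more than 1 dam, so no value belongs to a single embryo. The titles of the exposed samples carry only the name of IBU, whereas their exposure label names both drugs.

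STRA8 is a retinoic acid-induced transcription factor of premeiotic germ cells that works with its partner MEIOSIN on the promoters of meiotic genes. ZGLP1 is a transcriptional regulator that responds to BMP signals in female germ cells and takes part in the oogenic programme. MEIOC and YTHDC2 act one step later, on RNA. YTHDC2 is an RNA helicase with a YTH domain, and together with MEIOC and RBM46 it lowers mitotic transcripts, among them that of cyclin A2, so that the meiotic programme can replace the mitotic one. Stra8, Meioc and Ythdc2 are also transcribed in spermatogenic cells of the testis, and YTHDC2 is made at a low level in many cell types.

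Total counts ran from 37811968 to 48954631 per library. The germ cell gene Ddx4 was present in every library, at 191 to 268 CPM (counts scaled to a common library size with TMM factors), and the granulosa cell gene Foxl2 at 0.944 to 8.16 CPM. The replicate 3 library of each group stood apart, with 1838 CPM summed over 8 liver genes in the control and 2965 CPM in APAP+IBU, against 168 to 512 CPM in the other 4 libraries. Values are therefore given for all 6 libraries and again for replicates 1 and 2 of each group. In a list of 8 spermatid genes, the groups did not overlap for any gene and controls were the higher ones. Among all tested genes, 5.92% had groups that did not overlap with exposed libraries lower. Summed levels of the 8 were 33.0 to 122 CPM in controls and 1.53 to 4.97 CPM in exposed ovaries. No gene of that list was at 0 in any library. Of 6 genes of adult spermatogonia and spermatocytes, 3 did not overlap and were lower in exposed libraries (5.92% of all tested genes). Sums over the 6 were 41.8 to 74.3 CPM in controls and 26.6 to 35.6 CPM after exposure. Summed levels of 7 erythroid genes were 6066 to 15675 CPM in controls and 2730 to 8054 CPM after exposure. Their median log2 fold change was -0.98 over 6 libraries and -1.45 in replicates 1 and 2. In replicates 1 and 2, 4 of the 7 were called lower (12.9% of all tested genes). The part of these cells in the levels of Stra8, Meioc, Ythdc2 and Zglp1 was not tested.

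Retinoic acid is known to induce Stra8, and the letters before its start are shown for the receptor half-sites they hold. These are matches of letters and not measured sites. In the 250 bases before the RefSeq starts of Stra8, Meioc and Zglp1, both strands were searched for 3 motifs. These were AGGTCA, a half-site read by retinoic acid receptors and other nuclear receptors, and CNCCTCAG, a motif tied to STRA8 binding. The last was CACGTG, the E-box read by MAX and its partners. A single half-site is not a full retinoic acid receptor element, and pairs at set spacings were not searched. Stra8 held AGGTCA at 2 places, whose first bases lie 194 and 38 bases before the start, and neither of the other motifs. Zglp1 held 1 AGGTCA, on the opposite strand, and 1 CACGTG, and these matches overlap. Meioc held none of the 3 motifs. Ythdc2 was not searched. Of 32841 RefSeq promoter windows of this length, 14% held AGGTCA, 6.42% CNCCTCAG and 6.02% CACGTG. The sites are printed with 30 bases each from RefSeq on GRCm38.p6, at chr6:34920742-34920771 and chr6:34920898-34920927 on the plus strand for Stra8, which lie within an untranslated exon of another annotated Stra8 transcript, and at chr9:21067201-21067230 on the minus strand for Zglp1. Capitals mark the motif.
Stra8, AGGTCA far from the start: gatggggtgaaaAGGTCAtcttgctccttc
Stra8, AGGTCA near the start: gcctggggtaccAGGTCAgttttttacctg
Zglp1, CACGTG: aaacagcgccccCACGTGacctgcgccgcc

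To compare the genes with each other, levels were divided by exon length. In controls, Stra8 was the most abundant, at 159 ± 38.2 CPM per kb (SD, n = 3). Meioc followed at 23.6 ± 4.53, Zglp1 at 14.1 ± 3.81 and Ythdc2 at 5.02 ± 2.16 CPM per kb (SD, n = 3 each). In APAP+IBU ovaries the order was the same, with 119 ± 32.7 for Stra8, 33.9 ± 13.6 for Meioc, 11.3 ± 2.1 for Zglp1 and 7.46 ± 1.74 CPM per kb for Ythdc2 (SD, n = 3 each). Stra8 was above the other genes in every library. Zglp1 was below Meioc in all 6, but in control replicate 1 the pair were nearly level, with a ratio of 0.979, and elsewhere the ratio ran from 0.239 to 0.743. Ythdc2 was the lowest in every library, and its ratio to Zglp1 ran from 0.182 to 0.845. The step from Zglp1 to Ythdc2 was thus small in the libraries where Ythdc2 was high.

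Stra8 (ENSMUSG00000029848, chromosome 6, 34920163 to 34939344, plus strand, GRCm38) stood at 333, 319 and 208 CPM in the controls, listed by replicate number, while the exposed pools held 212, 274 and 156 CPM. The groups overlap, since control replicate 3 lies below both exposed replicates 1 and 2, and the lowest library of each group is replicate 3. The means were 287 ± 68.9 CPM in controls and 214 ± 58.9 CPM after exposure (SD, n = 3 each). The log2 fold change was -0.42 (95% interval -0.99 to 0.15, adjusted p = 0.692 in edgeR's quasi-likelihood test). With replicates 1 and 2 alone it had nearly the same size, -0.41, a narrower interval from -0.70 to -0.11 and an adjusted p of 0.0495 in edgeR's test. Each library counted 5990 to 12700 Stra8 reads, for which counting error is 0.887% to 1.29%, far below the spread between libraries.

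Meioc (ENSMUSG00000051455, chromosome 11, 102663716 to 102682237, plus strand) stood at 86.4, 113 and 128 CPM in the controls, listed by replicate number, while the exposed pools held 181, 203 and 85.4 CPM. Exposed replicates 1 and 2 were above all controls, and exposed replicate 3 was below all of them. Over the 6 libraries the mean was 109 ± 20.9 CPM in controls and 157 ± 62.6 CPM after exposure (SD, n = 3 each), a log2 fold change of 0.52 (95% interval -0.18 to 1.23, adjusted p = 0.692 in edgeR's test). In replicates 1 and 2 alone the log2 fold change was 0.97 (95% interval 0.64 to 1.29, adjusted p = 0.00661 in edgeR's test). The size of the difference moved with single libraries. It was 0.79 without exposed replicate 3 and 0.28 without exposed replicate 2, and with any 1 library left out it did not pass edgeR's test.

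Ythdc2 (ENSMUSG00000034653, chromosome 18, 44827746 to 44889724, plus strand) stood at 29.6, 37.9 and 66.2 CPM in the controls, listed by replicate number, while the exposed pools held 70.7, 78.9 and 49.0 CPM. Here both replicate 3 libraries crossed over, so that the control lay above exposed replicate 3 and just under exposed replicate 1. The means were 44.6 ± 19.2 CPM in controls and 66.2 ± 15.4 CPM after exposure (SD, n = 3 each). The log2 fold change of 0.57 had a 95% interval from -0.13 to 1.27 and an adjusted p of 0.692 in edgeR's test. In replicates 1 and 2 Ythdc2 showed the widest difference of the 4 genes, 1.17 (95% interval 0.85 to 1.49, adjusted p = 0.00623 in edgeR's test). Leaving out control replicate 3 alone was enough for Ythdc2 to pass in edgeR's test, with a log2 fold change of 0.97 and an adjusted p of 0.0479.

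Zglp1 (ENSMUSG00000079681, chromosome 9, 21062393 to 21067093, minus strand) stood at 19.9, 14.2 and 11.9 CPM in the controls, listed by replicate number, while the exposed pools held 10.6, 11.4 and 14.9 CPM. Control replicate 1 was the highest library, exposed replicate 3 the next, and the groups overlap. The means were 15.3 ± 4.15 CPM and 12.3 ± 2.28 CPM (SD, n = 3 each), and the log2 fold change was -0.31 (95% interval -0.86 to 0.24, adjusted p = 0.704 in edgeR's test). In replicates 1 and 2 it was -0.61 (95% interval -1.06 to -0.15, adjusted p = 0.0550 in edgeR's test), just short of the threshold, whereas DESeq2 on the same 4 libraries gave -0.61 with an adjusted p of 0.0213. Zglp1 was the least counted of the 4 genes, with 516 to 760 reads per library and a counting error of 3.63% to 4.40%. In the GENCODE M21 annotation, 1003 of its 1088 exon bases are shared with Gm49373, a longer transcript on the same strand. Gm49373 has no row of its own in the count table, so its reads on the shared bases may be counted as Zglp1.

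**Figure D1:**
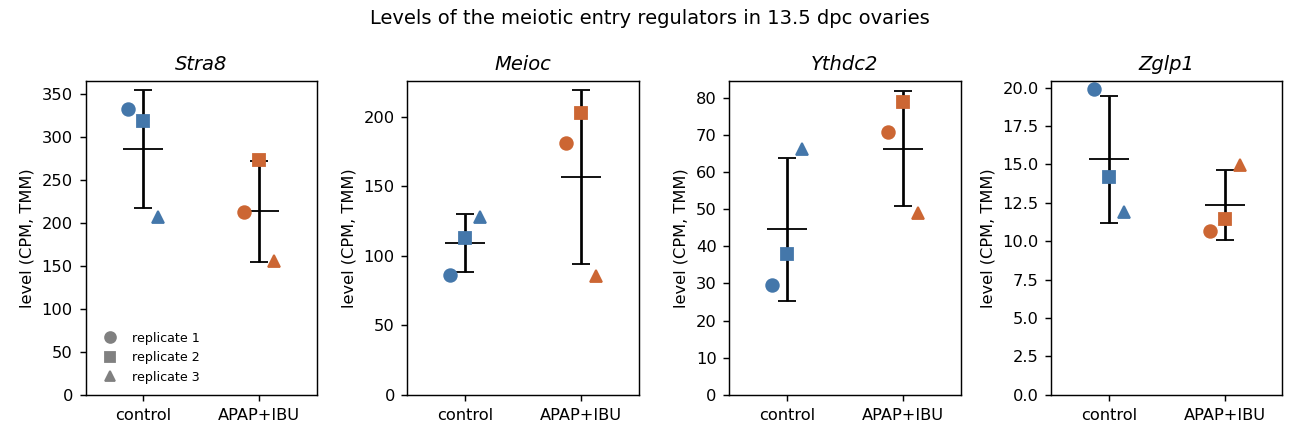
Level of each gene (CPM with TMM scaling, y axis from 0) in control and APAP+IBU ovaries. Each symbol is 1 library and its shape the replicate number, and bars give the mean and SD of 3 libraries. For Meioc, APAP+IBU replicates 1 and 2 (181 and 203 CPM) lie above the controls and replicate 3 (85.4 CPM) below them, and the groups overlap in all 4 panels.

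With all 6 libraries, 0 of the 4 genes were called at an adjusted p under 0.05 by edgeR, and 0 of 4 by DESeq2 without shrinkage. Among all tested genes edgeR called 0% higher and 0% lower. The paper reported Stra8 as downregulated and Meioc as upregulated in exposed ovaries from these libraries. Here both had a log2 fold change of the same sign as the paper's, and neither passed with 6 libraries. Why these calls differ from the paper's was not tested. None of the 4 had an unadjusted p under 0.05 in edgeR's test, a limit passed by 6.22% of tested genes, and none had groups that did not overlap, as 4.78% of genes did with exposed libraries higher and 5.92% with exposed libraries lower. An exact two-sided permutation test of the log2 levels gave p = 0.3 for Stra8, 0.4 for Meioc, 0.2 for Ythdc2 and 0.4 for Zglp1, where 3 libraries against 3 cannot go below 0.1. In replicates 1 and 2, 2 of the 4 genes were called higher, Meioc and Ythdc2, where 14.2% of all tested genes were, and 1 was called lower, Stra8, where 12.9% were. Counts over 4 genes are too few to be read against these shares, and the fits with and without the replicate 3 libraries share the other 4 libraries.

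**Figure D2:**
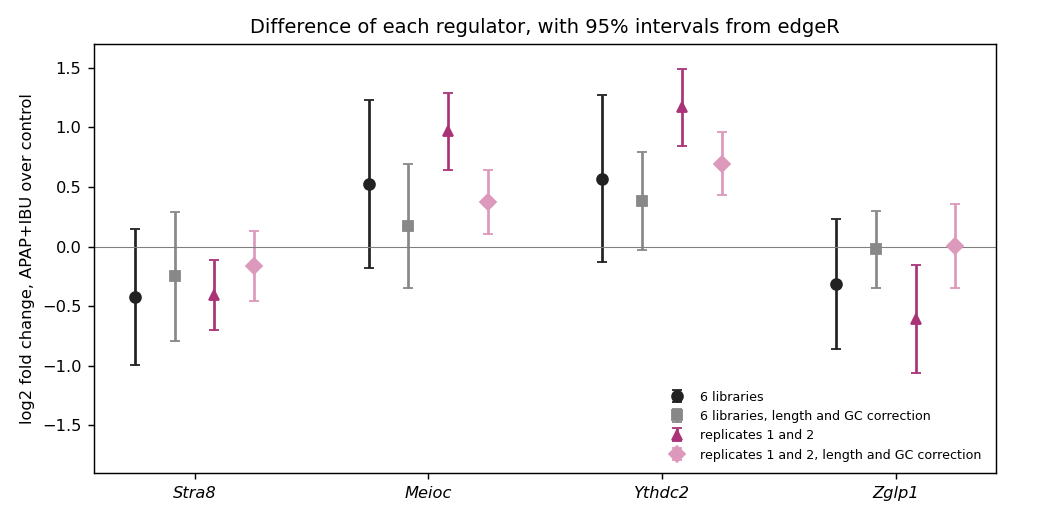
Log2 fold change of APAP+IBU over control ovaries for each gene, with 95% intervals from edgeR, for 4 fits. The intervals of the 6-library fits include 0 for all 4 genes, and after correction for length and GC content in replicates 1 and 2 the Zglp1 estimate sits at 0.0062.

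The 4 genes differ in exon length and base composition, and libraries differed in how such genes were counted. Ythdc2 has 8.878 kb of exons and 42.0% GC in its longest transcript, and Meioc has 4.616 kb and 38.5% GC. Stra8 has 1.803 kb and 50.9% GC, and Zglp1 has 1.088 kb and 57.5% GC. Among tested genes, Meioc lies at percentile 3.62 of GC content and Zglp1 at percentile 89.8. Ythdc2 lies at percentile 89.6 of length and Meioc at percentile 62.5, below the upper quartile of 5.95 kb. The 1706 tested genes above the upper quartile of length and below the lower quartile of GC content had a median log2 fold change of 0.22 with 6 libraries and 0.50 with replicates 1 and 2. The 1508 genes below the lower quartile of length and above the upper quartile of GC content had -0.27 and -0.58. Meioc and Ythdc2 thus moved in the direction of long, low GC genes and Zglp1 in that of short, high GC genes.

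To set this beside the members, the deviation of each library from a gene's mean was fitted by loess on length and GC content over all tested genes. For Zglp1 the fit gave 0.49 in control replicate 1, where the gene deviated by 0.56, and -0.29 in APAP+IBU replicate 1, where it deviated by -0.34. For Ythdc2 the fit gave -0.37 in control replicate 1 against an observed -0.82, and 0.14 in APAP+IBU replicate 2 against 0.60. For Meioc in APAP+IBU replicate 3 the fit gave -0.014 and the gene deviated by -0.56. For Stra8 in that library the fit gave 0.033 against an observed -0.63. How often single genes depart from the fit by this much was not tested.

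After the correction, with replicates 1 and 2, the log2 fold change was 0.69 for Ythdc2 (95% interval 0.43 to 0.96, adjusted p = 0.0128 in edgeR's test). It was 0.37 for Meioc (95% interval 0.11 to 0.64, adjusted p = 0.0681), -0.16 for Stra8 (95% interval -0.46 to 0.13, adjusted p = 0.443) and 0.0062 for Zglp1 (95% interval -0.35 to 0.36, adjusted p = 0.985 in edgeR's test). Ythdc2 was then the 1 gene of the 4 called higher, where 5.56% of all tested genes were, and 0 were called lower, where 7.99% were. With all 6 libraries the corrected values were 0.38 for Ythdc2 (95% interval -0.032 to 0.80), 0.17 for Meioc (-0.35 to 0.69), -0.25 for Stra8 (-0.79 to 0.29) and -0.023 for Zglp1 (-0.35 to 0.30), and none passed, with adjusted p from 0.532 to 0.961 in edgeR's test. How libraries came to differ along length and GC content was not tested.

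**Figure D3:**
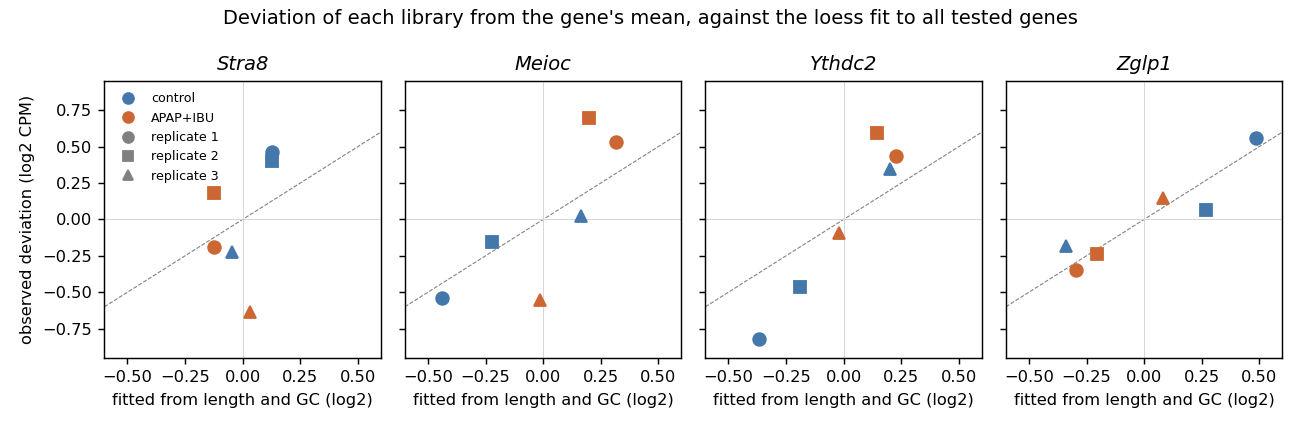
Deviation of each library from the gene's mean (log2 CPM, y axis) against the deviation fitted from exon length and GC content over all tested genes (x axis), with the line of equality dashed. In APAP+IBU replicate 3, Stra8 (-0.63 observed, 0.033 fitted) and Meioc (-0.56 observed, -0.014 fitted) lie well below the line.

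Ratios between the genes within a library do not depend on how libraries are scaled. The Meioc to Stra8 ratio per kb by replicate number was 0.101, 0.138 and 0.240 for controls, while exposed pools had 0.333, 0.290 and 0.214. Exposed replicates 1 and 2 were above all controls, and the replicate 3 libraries, which were close to each other, stood between these and the other controls. The mean log2 ratio was higher by 0.87 ± 0.41 (SE, n = 3 per group) after exposure, which an exact two-sided permutation test did not tell from 0 (p = 0.2, adjusted p = 0.45 over 6 pairs). In replicates 1 and 2 the difference was 1.39, and 4 libraries allow no p under 0.333. Corrected for length and GC content, the difference was 0.40 over 6 libraries and 0.56 in replicates 1 and 2. With that correction the groups no longer overlapped, at log2 ratios of -1.38, -1.15 and -0.91 in controls and -0.67, -0.75 and -0.82 after exposure, and the exact permutation p was 0.1, unadjusted and the smallest that 3 libraries against 3 allow.

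The ratio of Ythdc2 to Stra8 per kb separated a pair of libraries from the rest. It was 0.0181 and 0.0241 in control replicates 1 and 2, and 0.0648 in control replicate 3, which lay within the 0.0586 to 0.0676 of the 3 exposed libraries. The mean log2 difference was 1.05 ± 0.56 (SE, n = 3 per group, exact permutation p = 0.3, adjusted p = 0.45). The SD of this log2 ratio was 0.97 among controls and 0.10 among exposed libraries, so the spread was on the control side.

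The products of Ythdc2 and Meioc bind each other. The Ythdc2 to Meioc ratio per kb was 0.178 and 0.174 for the first pair of controls, 0.203 and 0.202 for the matching exposed pools, and 0.270 and 0.298 for the control and exposed replicate 3 libraries. The highest libraries were thus replicate 3 of both groups, and the groups overlap. The log2 difference was 0.18 ± 0.28 (SE, n = 3 per group, exact permutation p = 0.5, adjusted p = 0.6).

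For the pairs with Zglp1 the groups also overlapped. Zglp1 to Stra8 differed by 0.13 ± 0.39 (exact permutation p = 0.9), Zglp1 to Meioc by -0.74 ± 0.66 (p = 0.3) and Ythdc2 to Zglp1 by 0.92 ± 0.65 (p = 0.2), all on the log2 scale with SE and n = 3 per group, and the adjusted p over the 6 pairs ran from 0.45 to 0.9. After correction for length and GC content these differences were 0.27, -0.13 and 0.41. Before the correction the groups overlapped for all 6 pairs, and after it for 5, the exception being Meioc to Stra8.

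**Figure D4:**
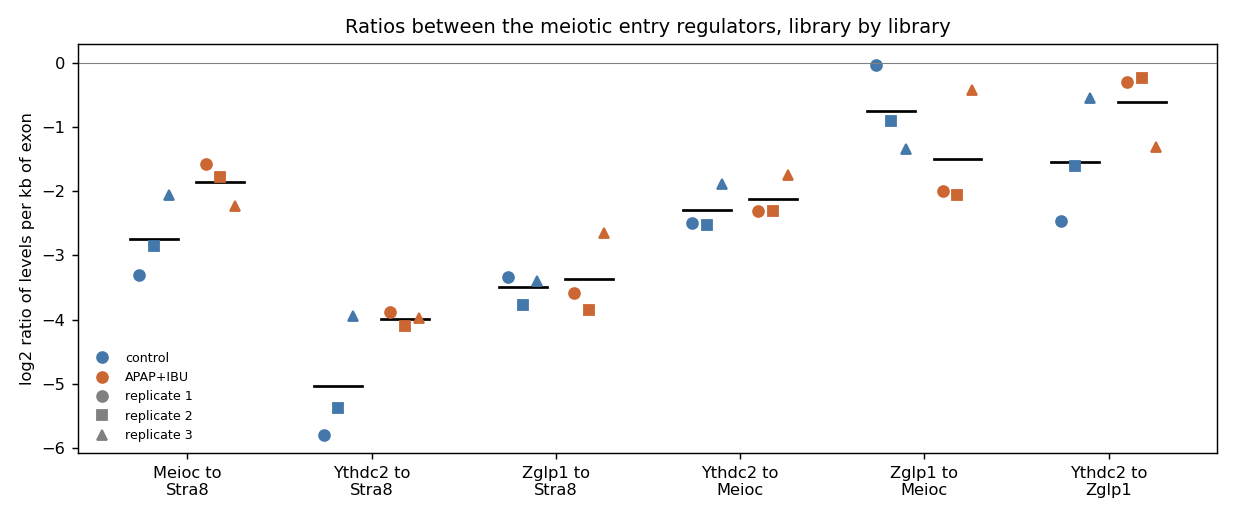
Log2 ratio of levels per kb of exon for each pair of genes, with 1 symbol per library, shape giving the replicate number, colour the group and black lines the group means. In the Meioc to Stra8 column the exposed replicates 1 and 2 (-1.59 and -1.79) lie above the controls (-3.30, -2.86 and -2.06), and the replicate 3 libraries lie between.

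Since the RNA was of whole gonads, fewer germ cells and less RNA per germ cell cannot be told apart. The genes were therefore also set against the mean log2 level of 7 germ cell genes (Ddx4, Dnd1, Mael, Stk31, Tdrd1, Rnf17 and Piwil2), whose summed level was 743 to 877 CPM in controls and 738 to 990 CPM after exposure. None of these 7 genes had groups that did not overlap, where 4.78% of tested genes did with exposed libraries higher and 5.92% with exposed lower. In replicates 1 and 2, 3 of the 7 were called higher and 1 lower (14.2% and 12.9% of all genes). After correction for length and GC content 0 and 0 were (5.56% and 7.99%). The panel was thus not a constant reference in the uncorrected fit of those libraries. Relative to the panel, the log2 difference was -0.44 ± 0.31 for Stra8 and 0.43 ± 0.42 for Meioc (SE, n = 3 per group, exact permutation p = 0.3 each). It was 0.61 ± 0.39 for Ythdc2 and -0.31 ± 0.26 for Zglp1 (SE, n = 3 per group, exact permutation p = 0.2 each). The adjusted p was 0.3 for all 4. Relative to the panel, APAP+IBU replicate 3 had the lowest Stra8 value of the 6 libraries, 0.88 against 1.22 to 2.02, while its Meioc value of 0.015 was just above the -0.089 of control replicate 1.

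Around the members, 7 lists of genes were read from the same fits. The lists were chosen with earlier results of these data known, so their counts are descriptions only. With all 6 libraries 0 genes of these lists passed an adjusted p of 0.05 in edgeR's test. The median log2 fold change over all tested genes was -0.0047 with 6 libraries and -0.0032 with replicates 1 and 2. Each list's counts in replicates 1 and 2 stand beside the shares of all tested genes called there, 14.2% higher and 12.9% lower, or 5.56% higher and 7.99% lower after correction for length and GC content. Counts near these shares say nothing particular to a list.

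Among the 6 activators of meiotic entry, 3 were called higher and 2 lower in replicates 1 and 2 (14.2% and 12.9% of all genes), and 1 and 0 after the correction (5.56% and 7.99%). With 6 libraries 1 had an unadjusted p under 0.05 in edgeR's test. That gene was Meiosin (listed as Gm4969, ENSMUSG00000085601), the partner of STRA8. By replicate number it stood at 65.7, 105 and 102 CPM in the controls, while the exposed pools held 179, 241 and 86.9 CPM, so that, as for Meioc, exposed replicates 1 and 2 were the highest libraries. The log2 fold change of Meiosin was 0.90 ± 0.35 over 6 libraries (SE, adjusted p = 0.692 in edgeR's test) and 1.32 in replicates 1 and 2 (adjusted p = 0.00903), and with length and GC correction it was 1.34 there (adjusted p = 0.0116). Dazl, the RNA-binding protein that makes germ cells competent for meiosis, had 0.35 over 6 libraries and 0.68 in replicates 1 and 2 (adjusted p = 0.00632 in edgeR's test), but -0.068 after the correction (adjusted p = 0.744). Dmrt1, a transcription factor that acts upstream of Stra8 in the fetal ovary, was at 55.3, 36.6 and 30.9 CPM in controls and 26.9, 25.3 and 35.8 CPM in exposed pools. Dmrt1 differed by -0.79 on the log2 scale in replicates 1 and 2 (adjusted p = 0.0227 in edgeR's test) and by -0.58 after the correction (adjusted p = 0.0589).

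Retinoic acid is the known inducer of Stra8. Of 11 genes of its synthesis, breakdown and receptors, 10 had a negative and 1 a positive log2 fold change over 6 libraries. Among all 20167 tested genes, 9962 had a positive one. The list's median was -0.28, or -0.14 after the correction, where Aldh1a3 (0.083), Rxra (0.0048) and Rxrb (0.024) were positive. The list mixes genes that make and degrade retinoic acid. Cyp26a1 was near the floor, with means of 0.42 CPM in controls and 0.33 CPM after exposure. In replicates 1 and 2, 0 were called higher and 3 lower (14.2% and 12.9% of all genes), and 0 and 1 after the correction (5.56% and 7.99%). Cyp26b1, which degrades retinoic acid, was lower in each exposed library (11.0, 7.36 and 9.73 CPM) than in each control library (18.6, 17.8 and 11.3 CPM), with a log2 fold change of -0.76 (adjusted p = 0.692 in edgeR's test with 6 libraries). Cyp26b1 had -0.97 in replicates 1 and 2 (adjusted p = 0.0180), and -0.82 after correction for length and GC content (adjusted p = 0.0376 in edgeR's test). Rarg, a retinoic acid receptor, had -0.34 over 6 libraries and -0.56 in replicates 1 and 2 (adjusted p = 0.0210 in edgeR's test), and -0.27 after the correction (adjusted p = 0.154). Testis supporting cells also express Cyp26b1. Their markers with those of Leydig cells summed to 20.6 to 46.8 CPM in controls and 21.4 to 24.2 CPM after exposure. Of these 7 markers, 2 did not overlap and were lower (5.92% of all tested genes). Of the 6 markers tested all had negative log2 fold changes, with a median of -1.10 over 6 libraries. In replicates 1 and 2, 4 were called lower (12.9% of all genes), among them Dhh and Ptgds, with 6-library values of -1.33 and -1.28. Their part in the lower Cyp26b1 level was not tested.

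BMP signals lie upstream of Zglp1. Of 16 ligands, receptors, SMADs and ID genes, 4 were called higher and 2 lower in replicates 1 and 2 (14.2% and 12.9% of all genes), and 1 and 0 after the correction (5.56% and 7.99%). The median log2 fold change was 0.064 over 6 libraries. Id1, a direct transcriptional target of BMP, was at 59.4, 39.4 and 19.9 CPM in controls and 25.8, 24.5 and 33.0 CPM after exposure. The log2 fold change of Id1 was -0.95 in replicates 1 and 2 (adjusted p = 0.0130 in edgeR's test) and -0.45 after the correction (adjusted p = 0.0848). Smad4, the shared SMAD, had 0.20 over 6 libraries and 0.33 in replicates 1 and 2 (adjusted p = 0.0439 in edgeR's test), and 0.33 after the correction (adjusted p = 0.0482).

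Of 11 repressors of meiotic entry 10 were tested, and 1 was called higher and 1 lower in replicates 1 and 2, with or without the correction, near the shares over all genes. Nanos2, which blocks meiosis in male germ cells, was not tested, with 0.13 to 0.30 CPM in every library. Mga, a component of the PRC1.6 complex that silences meiotic genes in dividing cells, had 121, 155 and 253 CPM in controls and 294, 287 and 212 CPM after exposure, with a log2 fold change of 1.09 in replicates 1 and 2 (adjusted p = 0.00623 in edgeR's test) and 0.48 after the correction (adjusted p = 0.0192). Its complex member Pcgf6 had 0.33 in replicates 1 and 2 (adjusted p = 0.0550 in edgeR's test).

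Of 15 genes of the RNA side, which are the partners of MEIOC and YTHDC2 with the writers, readers and erasers of m6A, 8 were called higher and 0 lower in replicates 1 and 2 (14.2% and 12.9% of all genes), with a median log2 fold change of 0.41. After correction for length and GC content 0 were called higher and 1 lower (5.56% and 7.99% of all genes), and the median was 0.0028. Rbm46, the third protein of the complex, was at 24.7, 25.5 and 41.9 CPM in controls and 45.7, 43.7 and 33.1 CPM after exposure. Its log2 fold change was 0.41 over 6 libraries (adjusted p = 0.692 in edgeR's test), 0.85 in replicates 1 and 2 (adjusted p = 0.00623) and 0.26 after the correction (adjusted p = 0.155). The m6A reader Ythdf3 had 0.83 in replicates 1 and 2 (adjusted p = 0.00632 in edgeR's test) and 0.22 after the correction (adjusted p = 0.128).

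Mitotic genes are the known targets that MEIOC and YTHDC2 lower. Of 12 cyclins, kinases and proliferation genes, 1 was called higher and 5 lower in replicates 1 and 2 (14.2% and 12.9% of all genes), and 0 and 4 after the correction (5.56% and 7.99%), with a median log2 fold change of -0.13 over 6 libraries. Ccna2 itself had 134, 124 and 188 CPM in controls and 120, 118 and 184 CPM after exposure, which is -0.079 ± 0.23 on the log2 scale (SE, adjusted p = 0.912 in edgeR's test). Its high libraries were replicate 3 of both groups. Cyclin D1 (Ccnd1) was lower in each exposed library (84.7, 78.1 and 88.1 CPM) than in each control library (120, 109 and 95.1 CPM), with a log2 fold change of -0.37 (adjusted p = 0.692 in edgeR's test) and -0.47 in replicates 1 and 2 (adjusted p = 0.0154). Cyclin E2 (Ccne2) had 1.06 in replicates 1 and 2 (adjusted p = 0.00703 in edgeR's test) and 0.29 after the correction (adjusted p = 0.227).

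Downstream, of 12 genes of the early meiotic chromosome, 11 were called higher and 1 lower in replicates 1 and 2 (14.2% and 12.9% of all genes), and 5 and 0 after the correction (5.56% and 7.99%). Their median log2 fold change was 0.65 over 6 libraries, 0.89 in replicates 1 and 2 and 0.58 there after the correction. The paper had already reported several of these genes as changed in these libraries, among them Sycp1, Sycp2, Sycp3, Spo11, Dmc1 and Rec8. The list was chosen with those results known, so its counts are no independent evidence. Sycp2, a synaptonemal complex protein, had 18, 35.2 and 34.0 CPM in controls and 95.1, 97.4 and 31.8 CPM after exposure, so that exposed replicate 3 lay below 2 of the 3 controls. Spo11, whose product cuts DNA to start recombination, was at 18.8, 16.6 and 11.2 CPM after exposure, above all controls (8.92 to 10.3 CPM), with a log2 fold change of 0.68 (adjusted p = 0.692 in edgeR's test). The 1 lower gene was Rec8, the meiotic cohesin that retinoic acid is known to induce as it does Stra8, with -0.63 in replicates 1 and 2 (adjusted p = 0.00945 in edgeR's test) and -0.29 after the correction (adjusted p = 0.0814).

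**Figure D5:**
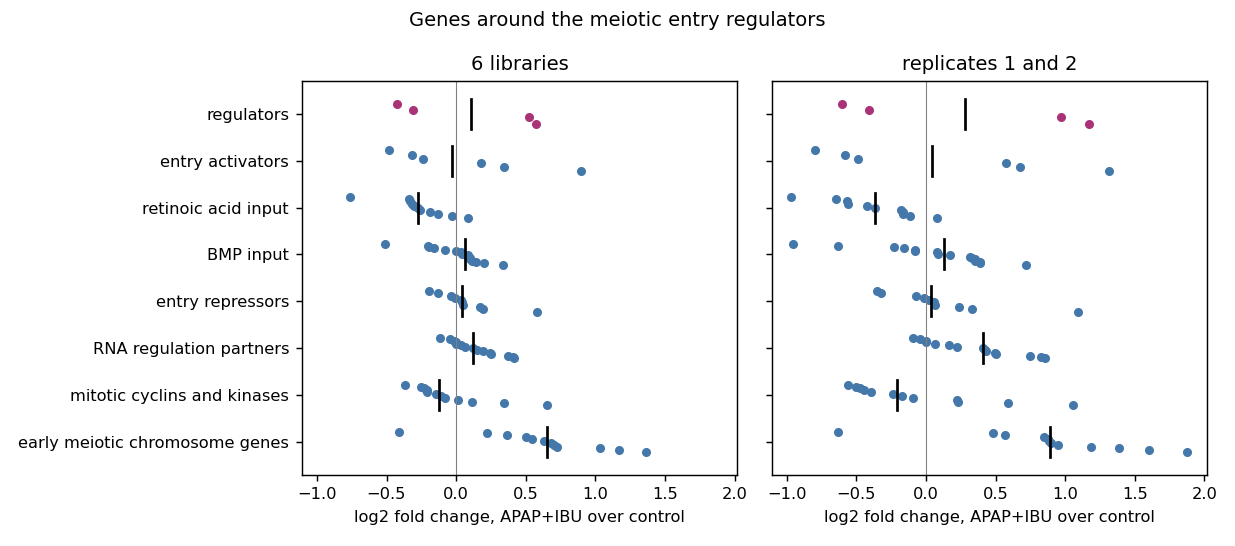
Log2 fold change of APAP+IBU over control for every tested gene of the 4 regulators and of the 7 lists, with all 6 libraries (left) and replicates 1 and 2 (right). Each point is 1 gene and black bars are list medians, which in replicates 1 and 2 run from -0.37 for retinoic acid input to 0.89 for early meiotic chromosome genes.

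Across the 6 libraries, the log2 levels of Meioc and Ythdc2 correlated with r = 0.83, and those of Zglp1 with Ythdc2 at -0.93 and with Meioc at -0.85. Stra8 correlated with Meioc at 0.055, with Ythdc2 at -0.47 and with Zglp1 at 0.37. These values are descriptions over 6 libraries that share the group, liver and length and GC differences given above. Among 12463 genes of at least 5 CPM, those with the pattern most like Stra8 were Tmem38b (r = 0.990), Gpc4 (0.985) and Cst8 (0.981), and those most like Meioc were Catsper2 (0.993), Pcdhb22 (0.993) and Gm3854 (0.992). Zdhhc6 (0.999), Arid2 (0.998) and Usp53 (0.998) were most like Ythdc2. Their exons span 8.284 to 12.572 kb, near or above the 8.878 kb of Ythdc2, with 40.3% to 47.4% GC against its 42.0%. Svbp (0.996), Ciapin1 (0.994) and Wdr74 (0.994) were most like Zglp1, with 51.6% to 55.0% GC against its 57.5%. Svbp has 1.065 kb of exons and Wdr74 1.867 kb, but Ciapin1 has 9.212 kb against the 1.088 kb of Zglp1. The genes most like Stra8 have 0.853 to 3.807 kb and 41.6% to 50.8% GC. Those most like Meioc have 3.695 to 6.609 kb and 45.0% to 47.1% GC, above the 38.5% of Meioc. Likeness of pattern says nothing of its size, as Tmem38b ran only from 16.5 to 18.3 CPM.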

How the data were processed

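Polyadenylated RNA of 13.5 dpc ovary pools was sequenced as stranded paired-end libraries. The authors mapped reads to mm10 with TopHat2 2.0.14 and Bowtie2 2.1.0, counted them per Ensembl gene with HTSeq 0.6.1, and deposited raw counts. The strand setting of the counting is not given in the sources used here. Groups came from the exposure label and replicate numbers from the titles.

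From the deposited counts, edgeR 4.0.16 in R 4.3.3 (TMM, its expression filter, quasi-likelihood test) was fitted to all 20167 tested genes, with Benjamini-Hochberg adjustment and a threshold of 0.05. DESeq2 1.42.0 without shrinkage was an alternative. The paper's methods use DESeq2. Ratios added 0.5 to each count and were tested by exact two-sided permutation over libraries. Symbols, positions, exon length and GC content of the longest transcript came from GENCODE M21 on GRCm38, the assembly of mm10 but a later annotation. The length and GC correction was a loess fit (span 0.3) per library. Levels per kb divide by the union of exons. Intervals cover 95%.

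All 150 listed symbols were matched, Meiosin through Gm4969. Members and lists were chosen with earlier results of these data known. Named genes were the members, Meiosin, Dazl, Rbm46, Ccna2 and Rec8, the 2 with the smallest p in each list, and the 3 most alike in pattern. Between libraries of the same group, chi-square per degree of freedom was 17.2 to 143, above sampling noise, so each was counted as 1 sample. On counts simulated from these 6 libraries with 200 of 19770 genes changed 4-fold, edgeR recovered 87.5%, and 7.89% of its 190 calls were unchanged genes. Smaller changes, such as the log2 fold changes of -0.42 to 0.57 of the 4 genes, were not simulated. The recovery therefore does not apply to them. Other alternatives were other scalings and filters, a replicate block, leaving out each library, and replicates 1 and 2 only.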

Additional observations from a re-analysis of the deposited data

How the results depend on the processing

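Some calls changed with the processing. For replicates 1 and 2 only, Stra8 had a log2 fold change of -0.41, Meioc 0.97 and Ythdc2 1.17, all past the threshold in edgeR's test. There DESeq2 gave -0.41 for Stra8, 0.96 for Meioc, 1.16 for Ythdc2 and -0.61 for Zglp1, all past it. In that fit DESeq2 called 5832 of 20633 tested genes. With length and GC correction in the same libraries, edgeR gave 0.69 for Ythdc2, past the threshold, while Zglp1 turned to 0.0062. Leaving out 1 library gave -0.65 to -0.26 for Stra8, 0.28 to 0.79 for Meioc, 0.35 to 0.97 for Ythdc2 and -0.50 to -0.079 for Zglp1, and the call of Ythdc2 passed without control replicate 3. Zglp1 to Stra8 ran from -0.22 to 0.38 with 1 library left out, negative without APAP+IBU replicate 3, and was -0.17 in replicates 1 and 2. Ythdc2 to Meioc ran from -0.0055 to 0.39, and was negative without that same library. Zglp1 to the germ cell panel was 0.048 with length and GC correction. The called genes of the 7 lists were 0 with 6 libraries, 42 with replicates 1 and 2 and 15 there with length and GC correction, an alternative chosen after seeing the data. The cause was not tested, except that fewer libraries entered. Over all tested genes DESeq2 without shrinkage called 192 with 6 libraries, and edgeR 1064 without control replicate 3 and 5607 with replicates 1 and 2.

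Same-numbered pools hold different embryos. Over 20167 genes their deviations correlated at -0.059, -0.014 and -0.043, and 0 of 6 libraries correlated best with their own number. The replicate 3 libraries were still alike in some traits, such as liver sums of 1838 and 2965 CPM. The paper describes independent experiments with dams of both conditions, but the sample labels do not tie replicate numbers to them. Whether same-numbered pools are pairs is therefore not settled by these correlations. With the replicate block the log2 fold changes were -0.43 for Stra8, 0.46 for Meioc, 0.64 for Ythdc2 and -0.30 for Zglp1, and with length and GC correction as well -0.29, 0.11, 0.39 and -0.017. The replicate block changed no call of the 4 genes and gave 2 called genes over the whole table, against 0 without it. For ratios, a balanced block cannot change a mean difference, and the blocked sign-flip test gave p from 0.25 to 1. With 3 replicate numbers this test cannot go below 0.25, so no ratio could have passed it.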
